A study of Mus musculus with 15 samples.

Results

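The data describe the early response of mouse CD8+ OT-I T cells to peptide-pulsed dendritic cells. The 3 libraries labelled as dendritic cell stimulation for 8 h were compared with the 3 labelled as unstimulated at 0 h, which is 6 of the 15 libraries of the series. All genes were members: 10831 of the 17493 genes in the tables had enough counts to be tested. Female OT-1 mice gave the T cells, from lymph nodes and spleen. This strain is also known as C57BL/6-Tg(TcraTcrb)1100Mjb/Crl, so every group shares the receptor transgene. The age of the mice was not given in the sources used here. Unstimulated cells were taken at 0 h. For stimulation, 50000 T cells per well were kept with 20000 dendritic cells that had been grown with Flt-3 ligand and pulsed with SIITFEKL peptide. The other 8 h stimulus, used below only as a contrast, was 5 ng/ml of immunofilaments (IF), synthetic filaments carrying peptide-MHC and IL-2, and it contains no dendritic cells. Values from the same stimuli at 22 h (DC 22 h and IF 22 h) are given only for marker levels. Viable CD8+ CD103- cells were sorted before RNA was taken. No 0 h group with dendritic cells and no 8 h group without a stimulus is among the samples used here, so time in culture, peptide and contact with dendritic cells cannot be told apart in this comparison.

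OT-I T cells carry a single transgenic receptor that recognises an ovalbumin peptide on the MHC class I molecule H-2Kb, and SIITFEKL is an altered form of that peptide to which the receptor binds more weakly. A dendritic cell presents the peptide on MHC class I together with co-stimulatory ligands and cytokines. Receptor signals pass through calcium-NFAT, Ras-AP-1 and NF-κB. Within hours a responding CD8+ T cell normally displays IL-2 and TNF family receptors, begins to build ribosomes and loses features of quiescence. Dendritic cells that mature in culture raise the actin-bundling protein fascin and chemokines such as CCL22, and they carry MHC class II, which mouse T cells do not make in appreciable amounts. Messenger RNA that remains attached to or sorted with the T cells is therefore measured in the same library.

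Total counts ran from 4957658 to 7958411 in the unstimulated libraries and from 6490604 to 9821932 at DC 8 h. Counts were scaled with TMM factors, which align the bulk of genes between libraries, and are given as CPM, the normalised read count relative to library size. The identity of the cells was checked with their own genes: Cd8a was at 919, 999 and 969 CPM in the unstimulated libraries and at 532, 664 and 576 CPM at DC 8 h, and Cd4 had no count in any of these 6 libraries. Replicate 2 at DC 8 h stood apart from its group. In a chi-square test of counts over genes, the statistic divided by its degrees of freedom (1 where libraries differ by counting error) was 35.1 and 39.0 between it and the other DC 8 h libraries. It was 17.6 between those other libraries and 10.2 to 15.2 among unstimulated libraries. The sample titles end in Don1, Don2 or Don3 in every group. The labels do not explain this tag or say that the replicates were separate mice, so the p-values measure the spread between these samples, which may be technical.

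At the adjusted p threshold of 0.05 (edgeR's quasi-likelihood test, Benjamini-Hochberg adjustment over all tested genes), 739 genes, or 6.82% of those tested, differed between DC 8 h and unstimulated cells. Of these, 298 were higher (2.75% of tested genes) and 441 were lower (4.07%), and 473 differed by at least 1 on the log2 scale. The median change was 1.46 among genes called higher and -1.06 among genes called lower, against 0.04 over all tested genes. Groups that do not overlap are more common than calls: in 28.1% of tested genes all DC 8 h values lay on one side of all unstimulated values, above them in 12.8% and below them in 15.3%. Genes called lower were the more abundant: their median level was 106 CPM before stimulation, while genes called higher reached a median of 29.8 CPM at DC 8 h. The split depends on scaling. With library size alone in place of TMM, whose factors were 0.857 to 0.872 for unstimulated and 1.03 to 1.05 for DC 8 h libraries, the median log2 change of all genes moved to 0.30 and 859 of 1079 calls (79.6%) were higher, against 40.3% with TMM. Directions below are therefore relative to the bulk of genes, and fewer cells of a type and less RNA per cell cannot be told apart in these bulk libraries.

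Replicate 2 at DC 8 h lay at the far end of the response. Among the 298 genes called higher it was the highest of the 3 DC 8 h libraries for 173 (58.1%), and among the 441 called lower it was the lowest for 288 (65.3%), whereas over all tested genes it was the highest for 36.2% and the lowest for 40.5%. Without this library 403 genes passed the threshold, 193 higher and 210 lower, and 375 of them were among the 739. No other single library, when left out, gave fewer calls in all: the counts ran from 426 without unstimulated replicate 2 to 665 without DC 8 h replicate 3.

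Receptors of activated T cells were among the genes that rose. Of 28 tested activation receptors 8 rose and 2 fell, with a list median of 0.53. Tnfrsf9, which encodes the co-stimulatory receptor 4-1BB, was at 4.99, 6.14 and 3.49 CPM in unstimulated cells and at 108, 258 and 63.6 CPM at DC 8 h. All 3 stimulated libraries were above all unstimulated ones, which was so for 12.8% of tested genes (log2 fold change 4.86 ± 0.64 SE, adjusted p = 1.83e-04 in edgeR's test). Il2ra, the high-affinity chain of the IL-2 receptor, went from 1.17, 0.361 and 2.33 CPM to 21.97, 56.7 and 17.9 CPM, again without overlap (log2 fold change 4.70 ± 0.97 SE, adjusted p = 0.00673). Ctla4, the inhibitory receptor for CD80 and CD86, varied less between replicates, with 3.08, 2.89 and 4.19 CPM before and 16.8, 16.5 and 12.8 CPM after (log2 fold change 2.19 ± 0.28 SE, adjusted p = 1.52e-04). Ly6a, the surface protein Sca-1, rose from 114, 103 and 103 CPM to 360.4, 1245 and 436 CPM (log2 fold change 2.67 ± 0.47 SE, adjusted p = 0.00229), with replicate 2 far above the other DC 8 h libraries. Cd200 (1.81 to 15.02 CPM, log2 3.04 ± 0.56), Cd83 (4.48 to 40.2 CPM, log2 3.18 ± 0.53), Tnfrsf18 (35.8 to 83.3 CPM, log2 1.21 ± 0.20), which encodes GITR, and the death receptor Fas (9.67 to 25.6 CPM, log2 1.39 ± 0.31) completed the 8. The call for Fas was lost without DC 8 h replicate 2 or unstimulated replicate 3, with adjusted p up to 0.0586. Cd5 and Cd6, both receptors that restrain antigen receptor signalling, were the 2 that fell.

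The genes reported from a panel of activation and naive-cell markers did not move together. Il2ra and Tnfrsf9 were the 2 of them past the threshold. Irf4, a transcription factor whose level follows antigen receptor signal strength, was at 10.3, 11.6 and 13.95 CPM in unstimulated cells and 41.8, 128 and 27.6 CPM at DC 8 h. These DC 8 h values all lay above the unstimulated ones, as in 12.8% of tested genes, and the difference missed the threshold (log2 fold change 2.47 ± 0.74 SE, adjusted p = 0.0567 in edgeR's test). Myc was at 37.7, 33.8 and 40.2 CPM and then 50.1, 109.9 and 38.1 CPM (log2 fold change 0.83 ± 0.43 SE, adjusted p = 0.286). Cd69, an early activation marker, was at 228, 153 and 250.2 CPM before stimulation and 135, 291 and 121 CPM after it, so that 2 of the 3 DC 8 h libraries lay below every unstimulated library (log2 fold change -0.21 ± 0.28 SE, adjusted p = 0.733). Ifng read 12.9, 10.3 and 23.7 CPM and then 5.44, 30.4 and 3.67 CPM (log2 fold change -0.24 ± 0.90 SE, adjusted p = 0.921). Gzmb, the cytotoxic protease granzyme B, was at 147, 72.95 and 108 CPM and then 67.9, 281 and 113 CPM (log2 fold change 0.49 ± 0.52 SE, adjusted p = 0.647). For Ifng, Gzmb, Myc and Nr4a1 the DC 8 h replicate 2 was the highest of all 6 libraries. The naive-cell genes Il7r and Tcf7 had log2 fold changes of -0.25 and -0.37, neither past the threshold, with adjusted p of 0.781 and 0.530 in edgeR's test. Il2 had 2 counts over the unstimulated libraries and 4 over the DC 8 h libraries and was not tested.

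**Figure D1:**
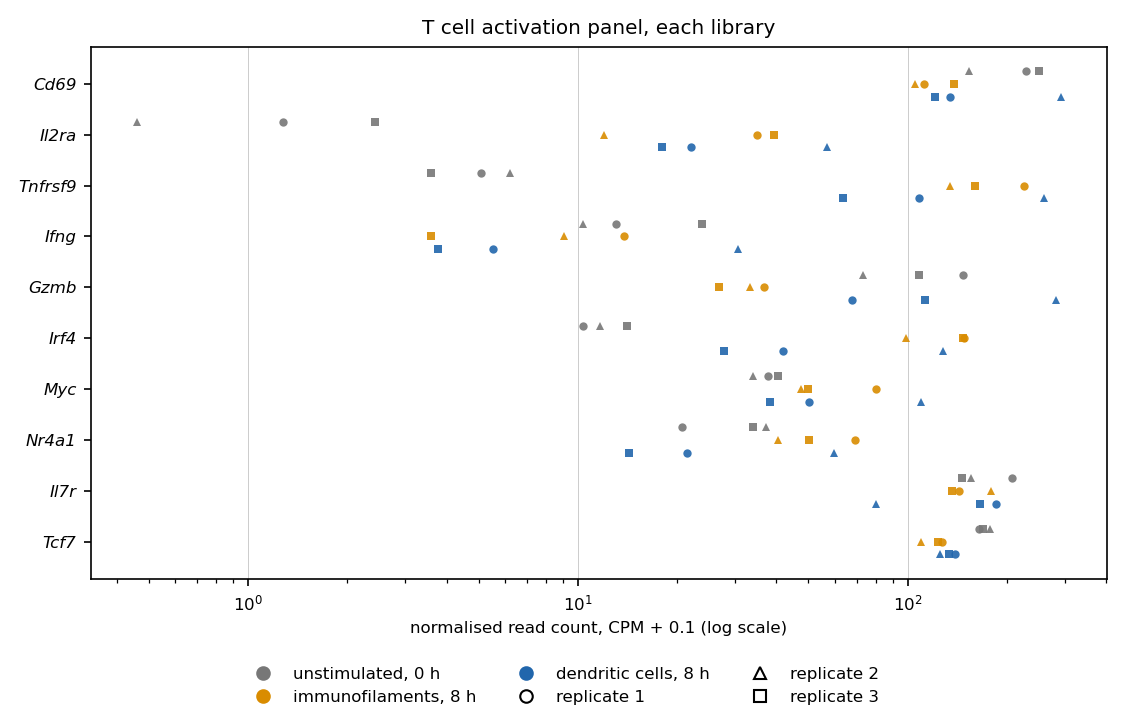
Normalised read count (CPM + 0.1, log axis) of 10 panel genes in each unstimulated, IF 8 h and DC 8 h library; colour gives the group and the symbol shape the replicate number. Il2ra and Tnfrsf9 separate both stimulated groups from the unstimulated libraries, and DC 8 h replicate 2 (triangle) is the highest DC 8 h library for Cd69, Il2ra, Tnfrsf9, Ifng, Gzmb, Irf4, Myc and Nr4a1.

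Components and targets of NF-κB, the pathway downstream of the T cell receptor and of TNF family receptors, had the largest share of risen genes among the 30 lists: 12 of 25 tested members rose and 1 fell, with a median of 0.78. Of all tested genes 2.75% rose and 4.07% fell. Against IF 8 h 6 of the 25 differed, while 0.665% of all tested genes did. Bcl3, Traf1, Nfkbie, Icam1 and Ccl22 were among them, each higher at DC 8 h. Bcl3, a nuclear partner of the p50 and p52 subunits, was at 29.2, 17.2 and 33.5 CPM before and 123, 149 and 202 CPM after (log2 fold change 2.57 ± 0.26 SE, adjusted p = 1.65e-05). Nfkb2, the precursor of p52, went from 73.6, 91.01 and 46.7 CPM to 229.6, 309.6 and 272 CPM (log2 fold change 1.94 ± 0.21 SE, adjusted p = 3.96e-05). Relb, the partner of p52, rose from 18.04, 21.1 and 24.4 CPM to 66.00, 69.6 and 73.03 CPM (log2 fold change 1.72 ± 0.19 SE, adjusted p = 4.43e-05). None of the 3 overlapped between the groups, which was so for 28.1% of tested genes, and all kept their calls without replicate 2. The signalling adaptors Traf1 (29.2 to 89.3 CPM, log2 1.61 ± 0.18) and Birc3 (18.9 to 56.7 CPM, log2 1.58 ± 0.20) rose as well, as did Nfkb1, Nfkbib, Nfkbie, Nfkbid, Tnip1 and Icam1. Nfkbib and Tnip1 each lost the call in 5 of 6 fits that left out 1 library (adjusted p up to 0.210 and 0.123), and Nfkbid lost it without DC 8 h replicate 2 or unstimulated replicate 2. The last of the 12, Ccl22, is also a marker of mature dendritic cells and is described with them. The member that fell was Tnfaip3, which encodes the inhibitor A20. Without 1 library the number risen ran from 9 to 11.

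Genes induced by IL-2 through the transcription factor STAT5 rose in 8 of 22 tested cases and fell in 1, with a median of 0.69, and 8 rose and 1 fell with any single library left out. Cish, an inhibitor of cytokine receptor signalling, was at 4.55, 4.15 and 3.95 CPM in unstimulated cells and 33.9, 115 and 43.7 CPM at DC 8 h (log2 fold change 3.92 ± 0.55 SE, adjusted p = 3.52e-04). Socs2, another member of that family, went from 2.79, 0.181 and 0 CPM to 32.95, 19.98 and 13.2 CPM (log2 fold change 4.30 ± 0.77 SE, adjusted p = 0.00265). Without unstimulated replicate 1 the fitted value for Socs2 was 7.57. It is also listed among genes of mature dendritic cells. Cdkn1a, the cell cycle inhibitor p21, rose from 1.03, 2.71 and 5.58 CPM to 51.1, 169 and 46.05 CPM (log2 fold change 4.91 ± 0.61 SE, adjusted p = 1.31e-04). For these 3 genes DC 8 h lay wholly above the unstimulated libraries, as it did for 12.8% of tested genes. Of 20 tested genes of survival and death 4 rose, 1 fell and 15 did not pass the test, with a median of 0.16, and with library size alone 7 rose. Bcl2l1, which encodes the anti-apoptotic BCL-XL, was at 8.07, 15.2 and 9.07 CPM and then 38.5, 89.5 and 37.98 CPM (log2 fold change 2.36 ± 0.43 SE, adjusted p = 0.00272). Bcl2 fell from 319.9, 241 and 279 CPM to 110.1, 83.9 and 86.1 CPM (log2 fold change -1.58 ± 0.20 SE, adjusted p = 1.71e-04). Bcl2l11, the pro-apoptotic BIM, rose from 60.4, 46.8 and 27.7 CPM to 178, 153 and 170.4 CPM (log2 fold change 1.89 ± 0.23 SE, adjusted p = 1.31e-04). Birc3 and Fas were the other 2 of that list that rose, and Pim2, a survival kinase counted with the STAT5 targets, rose as well (108 to 225 CPM, log2 1.06 ± 0.18).

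Of 25 tested transcription factors of T cell activation 7 rose and 2 fell, with a median of 0.53, and leaving out DC 8 h replicate 2 reduced this to 3 risen and 1 fallen. Without unstimulated replicates 1 or 2 the count was 4 risen and 1 fallen. Utf1, a chromatin-associated protein first known from embryonic stem cells, was at 1.47, 1.08 and 0 CPM before and 21.97, 58.4 and 27.7 CPM after (log2 fold change 5.25 ± 0.60 SE, adjusted p = 6.11e-05). Its call held without each library. Bhlhe40, which supports effector cytokine production, went from 7.33, 7.04 and 9.53 CPM to 18.4, 51.7 and 18.3 CPM (log2 fold change 1.89 ± 0.42 SE, adjusted p = 0.0117). Batf, the AP-1 partner of IRF4, rose from 21.9, 17.3 and 24.6 CPM to 33.1, 45.8 and 32.3 CPM (log2 fold change 0.80 ± 0.20 SE, adjusted p = 0.0243). Eomes, a T-box factor of CD8+ effector and memory cells, rose from 66.00, 68.4 and 73.5 CPM to 151, 214 and 89.5 CPM (log2 fold change 1.13 ± 0.32 SE, adjusted p = 0.0432). The calls for Bhlhe40 and Batf were lost without DC 8 h replicate 2 and without unstimulated replicates 1 or 2, with adjusted p up to 0.0958 and 0.134. That for Eomes was lost in 5 of 6 fits that left out 1 library, with adjusted p up to 0.210. Zeb2, a factor of terminal effector cells, fell (10.5 to 1.53 CPM, log2 -2.77 ± 0.46).

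Cytokines and cytotoxic molecules showed no common direction. Of 20 tested cytokines and chemokines 2 rose and 2 fell, and none fell without DC 8 h replicate 2 or unstimulated replicate 1. Cxcl10, an interferon-induced chemokine, went from 3.96, 4.15 and 9.07 CPM to 37.5, 191 and 63.4 CPM (log2 fold change 4.12 ± 0.76 SE, adjusted p = 0.00331). Xcl1, the chemokine with which CD8+ T cells attract XCR1+ dendritic cells, went from 7.63, 5.42 and 7.91 CPM to 37.6, 112 and 16.3 CPM (log2 fold change 2.98 ± 0.85 SE, adjusted p = 0.0432). The call for Xcl1 was lost in 5 of 6 fits that left out 1 library, with adjusted p up to 0.229. Cd40lg had 33 counts over the unstimulated libraries and none at DC 8 h, and was at least 16.5-fold lower against a floor of 3 counts over the group. Unstimulated replicate 2 held 22 of these counts, and without it the limit was 8.24-fold. The call for Cd40lg was lost in 5 of 6 fits that left out 1 library, all but that without unstimulated replicate 3, with adjusted p up to 0.158. Tnfsf10, which encodes the death ligand TRAIL, was the other that fell (18.3 to 6.86 CPM, log2 -1.42 ± 0.33), a call lost without DC 8 h replicate 2 or unstimulated replicate 1. Of 15 cytotoxic effectors 5 fell and 2 rose. Without DC 8 h replicate 2 the count was 3 fallen and 1 risen, without unstimulated replicate 3 it was 4 fallen and none risen, and without unstimulated replicates 1 or 2 it was 1 risen. Gzma, the protease granzyme A, fell from 237, 218 and 255 CPM to 55.3, 61.2 and 111 CPM (log2 fold change -1.64 ± 0.34 SE, adjusted p = 0.00687). Gzmm (8.43 to 0.816 CPM, log2 -3.29 ± 0.78), Ctsw (226 to 102 CPM, log2 -1.14 ± 0.16), Nkg7 and Klrg1 fell too. Gzmc had 2 counts in the unstimulated libraries and 101 at DC 8 h, a ratio of 33.7 (95% counting interval 9.08 to 282), and Serpinb9, the granzyme B inhibitor, rose (25.9 to 65.8 CPM, log2 1.34 ± 0.30). The call for Gzmm was lost without DC 8 h replicate 2, that for Klrg1 in 4 of 6 fits that left out 1 library, that for Serpinb9 without the same library or unstimulated replicate 3, and that for Gzmc without each of the 3 unstimulated libraries in turn.

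Genes inducible by interferon-gamma and genes of MHC class I presentation rose in 8 of 34 tested cases and fell in none, with a median of 0.46. With library size alone 18 rose and none fell. Type I interferon-stimulated genes as a list did not: 3 of 44 rose, 2 fell and the median was 0.03, near that of all genes. The number risen was 5 with library size alone, and with 1 library left out at most 1 fell. Gbp2, a guanylate-binding protein of cell-autonomous defence, was at 153, 124 and 116 CPM before and 534, 1976 and 671 CPM after (log2 fold change 3.02 ± 0.48 SE, adjusted p = 0.00115), with replicate 2 the highest. Gbp3 (8.90 to 31.4 CPM, log2 1.82 ± 0.37), Irgm2 (14.2 to 40.3 CPM, log2 1.51 ± 0.28) and Psme2 (209.8 to 391 CPM, log2 0.90 ± 0.19), a proteasome activator subunit, rose by less. In the other list Parp14 rose (20.7 to 51.8 CPM, log2 1.32 ± 0.24) and Slfn5 fell (36.7 to 14.3 CPM, log2 -1.36 ± 0.33). Slfn5 lost its call when any of 5 libraries was left out. The promoter of Gbp2 is shown because interferon response elements (ISRE, on either strand, searched in 250 bases before to 50 after the start) were in 7.22% of the 291 RefSeq promoters of genes called higher, 2.98% of the 436 of genes called lower and 3.12% of the 10378 of tested genes. It reads, in GRCm38.p6 on the plus strand at chr3:142620413-142620662, with an AP-1 site (TGANTCA) and the ISRE in capitals:
Gbp2: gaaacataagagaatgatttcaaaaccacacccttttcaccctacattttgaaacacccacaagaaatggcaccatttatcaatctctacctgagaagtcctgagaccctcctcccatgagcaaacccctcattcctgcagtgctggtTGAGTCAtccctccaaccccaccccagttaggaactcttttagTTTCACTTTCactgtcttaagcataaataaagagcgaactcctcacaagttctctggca
The first capital letter of the ISRE lies 59 bases before the RefSeq start and that of the AP-1 site 102 bases before it. AP-1 letters themselves were in 5.15% of promoters of genes called higher and 4.71% of those of tested genes, and these are counts of letters in a window, not sites.

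For lists of cell growth the shares called can be set beside those of all tested genes, 2.75% higher and 4.07% lower. In the nucleolar ribosome biogenesis list 52 of 56 tested genes had a log2 fold change above 0, with a median of 0.47. The share called higher, 2 genes or 3.57%, was near that of all tested genes. These were Ncl, which encodes nucleolin (465 to 899.7 CPM, log2 0.95 ± 0.26), and Wdr75 (15.7 to 34.9 CPM, log2 1.15 ± 0.28), a subunit of the machinery that processes ribosomal RNA. Both calls were lost without DC 8 h replicate 2, and over all fits that left out 1 library the adjusted p reached 0.215 and 0.121. The list median was 0.14 without that library. None of the 56 passed without DC 8 h replicate 2 or unstimulated replicates 2 or 3, while 13 were higher with no low-count filter, 6 with library size alone and 4 when only the 2 groups were fitted. Of 42 genes of amino acid and one-carbon metabolism 5 rose (11.9%) and 1 fell (2.38%). Trib3, a pseudokinase induced by amino acid shortage, had no count in the unstimulated libraries and 73, 17 and 64 counts at DC 8 h, at least 34.2-fold higher against a floor of 3 counts over the group. It was joined by Atf5 (3.66 to 9.37 CPM, log2 1.35 ± 0.39), a factor of the same stress response, the tryptophan tRNA ligase Wars (32.2 to 98.7 CPM, log2 1.62 ± 0.39) and Odc1 (81.6 to 195 CPM, log2 1.26 ± 0.29), the first enzyme of polyamine synthesis. In cholesterol and fatty acid synthesis 4 of 30 rose (13.3%) and none fell. Among those that rose were Idi1 (1.75 to 8.17 CPM, log2 2.20 ± 0.59), Sqle (7.15 to 21.99 CPM, log2 1.61 ± 0.42) and Elovl6 (13.6 to 36.5 CPM, log2 1.42 ± 0.33). With 1 library left out, the amino acid list had 1 gene higher without DC 8 h replicate 2 or unstimulated replicate 1 and 2 without unstimulated replicates 2 or 3, and it had 3 with the replicate number as a block and 9 with library size alone. The cholesterol and fatty acid list had none higher without unstimulated replicate 3, 1 without DC 8 h replicate 2 or unstimulated replicate 2, and 2 without DC 8 h replicate 1 or unstimulated replicate 1. It had 7 higher with library size alone and 9 with no low-count filter. DESeq2 and the block each called 1 gene of that list lower, and 2 were lower with no filter. Of these 7 metabolic genes Trib3 kept its call without each library, and the other 6 lost it at least once. None of 14 chaperonin, 32 proteasome, 23 glycolysis, 34 respiratory chain and 42 DNA replication genes passed the test, with list medians of 0.48, 0.39, -0.05, -0.06 and -0.09. At an unadjusted p under 0.05 in edgeR's test, 8 chaperonin, 9 proteasome, 1 glycolysis and 2 DNA replication genes were higher, and 4 glycolysis, 7 respiratory chain and 3 DNA replication genes were lower. DESeq2 called 1 proteasome gene higher and 2 glycolysis, 4 respiratory chain and 2 DNA replication genes lower, and none of the chaperonin list. With library size alone 5 chaperonin and 7 proteasome genes were higher and none of the other 3 lists was called. With no low-count filter 4 chaperonin, 2 proteasome, 3 glycolysis, 1 respiratory chain and 3 DNA replication genes were higher, and 5 DNA replication genes were lower.

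**Figure D2:**
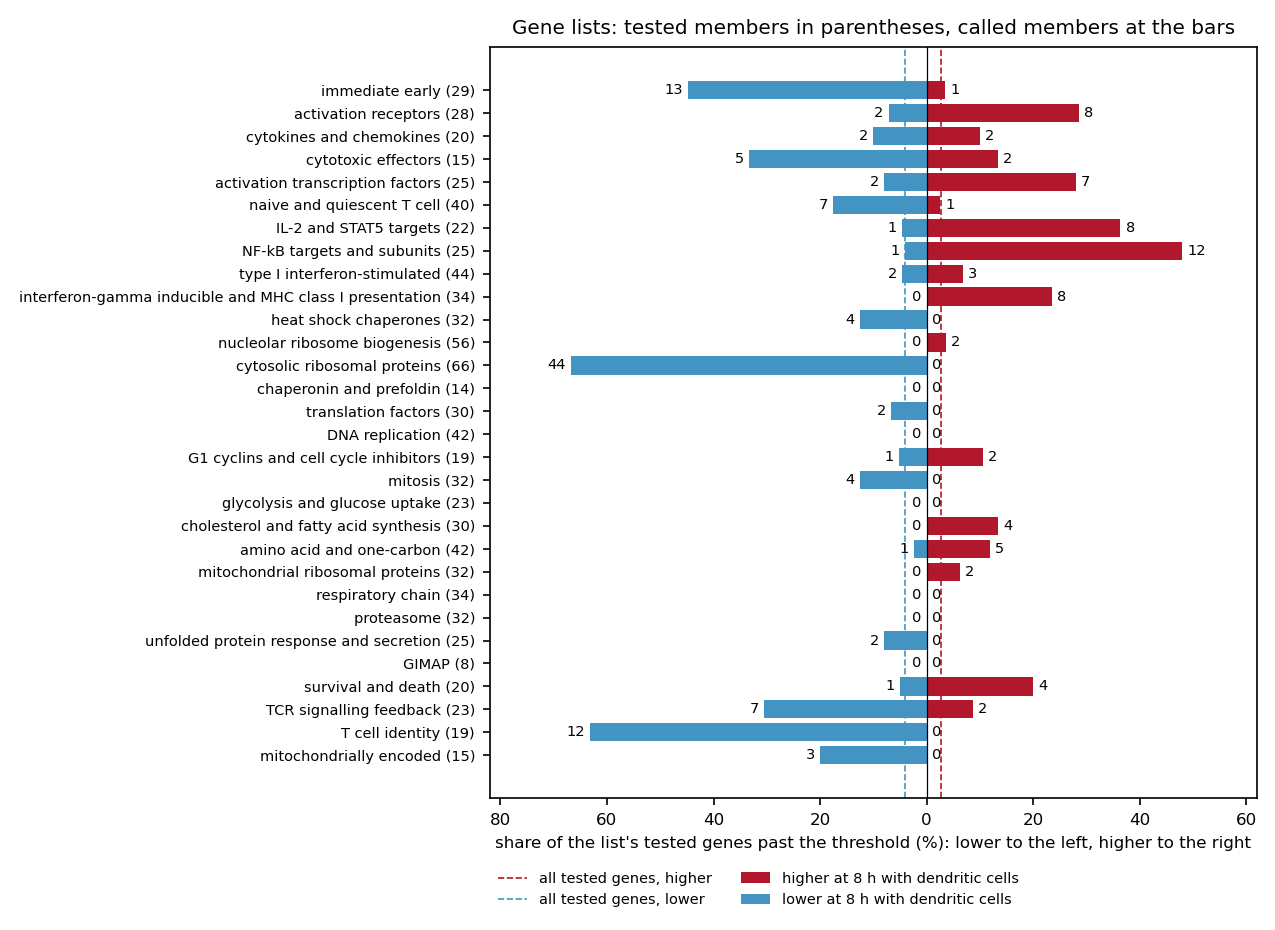
Share of each list's tested genes that were lower (bars to the left) or higher (bars to the right) at DC 8 h than in unstimulated cells, in percent; numbers at the bars count the genes, numbers in parentheses the tested members, and dashed lines mark the shares over all tested genes, 4.07% lower and 2.75% higher. NF-κB and STAT5 lists extend furthest to the right, and ribosomal protein, T cell identity and immediate early lists furthest to the left.

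Among the steepest falls were heat shock and immediate early genes that were abundant in the unstimulated libraries. Hspa1b, on chromosome 17, encodes the inducible chaperone HSP70 and had 896, 1316 and 1570 counts in unstimulated cells against 1, 3 and 4 at DC 8 h. Its neighbour Hspa1a encodes a nearly identical HSP70 and had 144, 260 and 350 counts against 3, 1 and 0. Over each group the ratios were 709 for Hspa1b (95% counting interval 360 to 1644) and 283 for Hspa1a (110 to 1040), lower at DC 8 h. Over their whole length the transcripts share 84.3% of aligned bases (GENCODE vM21), which is not the likeness of the part that was sequenced. Whether reads were divided between both genes by the counting was not tested. Their promoters are shown because they carry the same heat shock letters (GAANNTTC, in capitals) and are nearly the same sequence, with 3 of 250 bases differing. In GRCm38.p6 they lie on the minus strand at chr17:34972157-34972406 (Hspa1a) and chr17:34959239-34959488 (Hspa1b), and the heat shock letters begin 104 bases before each RefSeq start:
Hspa1a: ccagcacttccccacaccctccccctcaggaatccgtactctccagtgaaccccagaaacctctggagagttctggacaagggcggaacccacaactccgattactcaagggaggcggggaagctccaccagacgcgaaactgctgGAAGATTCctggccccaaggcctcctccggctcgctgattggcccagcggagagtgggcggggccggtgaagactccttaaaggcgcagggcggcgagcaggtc
Hspa1b: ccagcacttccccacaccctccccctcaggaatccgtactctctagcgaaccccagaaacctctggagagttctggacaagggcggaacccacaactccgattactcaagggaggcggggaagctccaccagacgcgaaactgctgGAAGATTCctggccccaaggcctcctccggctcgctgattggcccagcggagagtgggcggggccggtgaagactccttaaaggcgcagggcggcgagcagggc
Such letters were in 6.88% of the promoters of genes called lower and 6.01% of those of tested genes. Of the heat shock list 4 of 32 tested members were lower and none higher, with a median of 0.23. With library size alone 3 were lower and 8 higher, and with no low-count filter 5 of 34 were lower and 7 higher. The other 2 that fell were Dnajb9 (23.9 to 7.78 CPM, log2 -1.61 ± 0.33) and Dnajb1 (107 to 62.7 CPM, log2 -0.76 ± 0.18), co-chaperones of the HSP70 family. Dnajb1 lost its call in 3 of 6 fits that left out 1 library.

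Of 29 tested immediate early genes 13 fell and 1 rose, with a median of -0.97. Fos, on chromosome 12, encodes a subunit of AP-1 and was at 218, 257 and 399 CPM in unstimulated cells and 4.55, 7.32 and 1.91 CPM at DC 8 h (log2 fold change -5.97 ± 0.47 SE, adjusted p = 1.75e-06). Jun, its partner, fell from 591, 512 and 879.9 CPM to 69.1, 117 and 75.2 CPM (log2 fold change -2.92 ± 0.43 SE, adjusted p = 5.63e-04). Junb fell from 625, 753 and 776 CPM to 176, 215 and 206 CPM (log2 fold change -1.85 ± 0.17 SE, adjusted p = 8.57e-06). The groups were far apart for all 3. Fosb (88.2 to 1.59 CPM, log2 -5.82 ± 0.89), the phosphatase Dusp1 (147 to 13.2 CPM, log2 -3.47 ± 0.32), the eIF2α phosphatase subunit Ppp1r15a (372 to 54.4 CPM, log2 -2.77 ± 0.28), the G protein regulator Rgs2 (129 to 13.2 CPM, log2 -3.29 ± 0.41) and the factor Klf4 (17.1 to 0.742 CPM, log2 -4.46 ± 0.66) fell with them. All 8 kept their calls without each library. Gadd45b was the member that rose (24.4 to 72.1 CPM, log2 1.57 ± 0.38), and it lost its call without DC 8 h replicate 2 or unstimulated replicates 1 or 2.

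**Figure D3:**
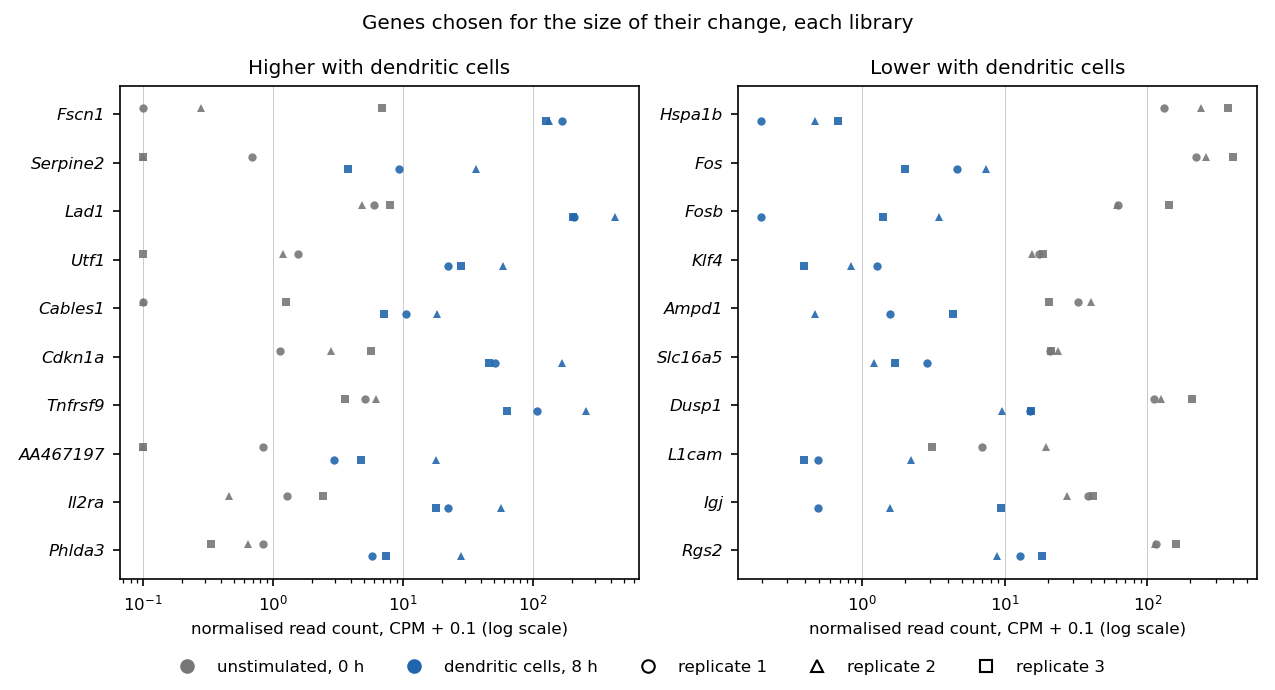
Normalised read count (CPM + 0.1, log axis) in each unstimulated (grey) and DC 8 h (blue) library for the 10 largest rises (left) and 10 largest falls (right) among called genes whose groups do not overlap, with a mean of 50 counts or more in the higher group and a library above 3 counts in the lower one; symbol shape gives the replicate number. The rule kept out genes near 0 in a group, such as Trib3, Ccl22, Spib and Hspa1a, and DC 8 h replicate 2 is the highest library for 9 of the 10 genes on the left, Fscn1 being the exception.

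Genes were also chosen for the size of their rise, among those with a mean of at least 50 counts at DC 8 h and a library above 3 counts in unstimulated cells, and are given as a description. These limits and the rule of no overlap left out 29 of the 39 called genes with a fitted rise of 4.66 or more on the log2 scale, among them Trib3, Ccl22 and Spib, which are given by their counts in other paragraphs. Lad1, which encodes ladinin, a basement membrane and actin-associated protein, went from 5.87, 4.69 and 7.91 CPM to 208, 429.7 and 205 CPM (log2 fold change 5.52 ± 0.44 SE, adjusted p = 1.75e-06). Serpine2, a protease inhibitor, went from 0.587, 0 and 0 CPM to 9.20, 36.1 and 3.67 CPM (log2 fold change 6.04 ± 1.22 SE, adjusted p = 0.00597). Phlda3, a p53 target, went from 0.733, 0.542 and 0.233 CPM to 5.64, 28.05 and 7.33 CPM (log2 fold change 4.66 ± 0.83 SE, adjusted p = 0.00247). AA467197 (0.244 to 8.52 CPM, log2 4.85 ± 1.21) and Cables1 (0.388 to 11.9 CPM, log2 5.18 ± 0.90) were at 5 counts or fewer in every unstimulated library, and the call for AA467197 was lost without DC 8 h replicate 2 and without unstimulated replicates 2 or 3. The size of these rises rests on few unstimulated counts: the fitted log2 fold change was 10.05 for Serpine2 and 9.11 for AA467197 without unstimulated replicate 1, and 9.63 for Cables1 without unstimulated replicate 3. The falls chosen by the same limits, which kept 10 of 24 called genes with a fitted change of -3.29 or lower and left out Hspa1a, included Ampd1, the AMP deaminase of muscle and lymphocytes (31.2 to 2.04 CPM, log2 -3.97 ± 0.68), the monocarboxylate transporter Slc16a5 (21.8 to 1.83 CPM, log2 -3.54 ± 0.56), the adhesion molecule L1cam (9.75 to 0.933 CPM, log2 -3.37 ± 0.97) and Igj, the joining chain of secreted antibodies and a plasma cell gene (35.6 to 3.76 CPM, log2 -3.30 ± 0.92). L1cam lost its call in 4 and Igj in 5 of 6 leave-one-out fits.

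Genes of naive and quiescent T cells fell in 7 of 40 tested cases and rose in 1, with a median of -0.30. The median was -0.12 without DC 8 h replicate 2. With library size alone it was -0.04 while that of all genes was 0.30, and the list median minus that of all genes was -0.34 under either scaling. The number risen was 3 under that scaling, and with no low-count filter 11 fell. Dtx1, a Notch target that favours anergy, fell from 309, 259 and 272 CPM to 40.7, 78.3 and 32.4 CPM (log2 fold change -2.47 ± 0.32 SE, adjusted p = 1.59e-04). Igfbp4, a growth factor-binding protein of naive CD8+ T cells, fell from 637, 575 and 573 CPM to 93.9, 153 and 161 CPM (log2 fold change -2.13 ± 0.45 SE, adjusted p = 0.00862). Rasgrp2 (140.0 to 41.6 CPM, log2 -1.75 ± 0.23), an activator of integrin signalling, and Nsg2 (270.0 to 118 CPM, log2 -1.19 ± 0.20) fell by less. Bach2, a repressor that maintains quiescence, was the member that rose (58.2 to 146 CPM, log2 1.32 ± 0.24). Its 3 stimulated libraries were all above the unstimulated ones, which was so for 12.8% of tested genes.

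Messages that define the T cell fell broadly. Of 19 tested T cell identity genes 12 fell and none rose, with a median of -0.70. Cd3e, a signalling chain of the T cell receptor complex, was at 1695, 1366 and 1352 CPM before and 599, 485 and 640.4 CPM after (log2 fold change -1.36 ± 0.19 SE, adjusted p = 2.92e-04). Cd8b1, the CD8 beta chain, went from 1899.7, 1866 and 1705 CPM to 839.8, 652 and 819 CPM (log2 fold change -1.24 ± 0.16 SE, adjusted p = 1.83e-04). The groups stayed apart for the adhesion receptor Cd2, which went from 906, 1031 and 898 CPM to 382, 312 and 371 CPM (log2 fold change -1.41 ± 0.16 SE, adjusted p = 4.43e-05). Thy1, a surface glycoprotein of T cells, went from 2299.7, 2286 and 2118 CPM to 1004, 990.2 and 1052 CPM (log2 fold change -1.14 ± 0.13 SE, adjusted p = 4.43e-05). No DC 8 h library reached an unstimulated one for these 4 genes, which was so for 15.3% of tested genes. Lck (1785 to 998 CPM, log2 -0.84 ± 0.12) and Cd8a (962 to 591 CPM, log2 -0.70 ± 0.13) fell by less. With library size alone 9 of the 19 were still lower and none higher, and with 1 library left out between 9 and 12 were lower.

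Cytosolic ribosomal protein genes were lower by small amounts. Of 66 tested genes 44 were lower and none higher, with a median of -0.54. This count rests on the scaling: with library size alone 5 were lower, the median was -0.27 and the median of all genes 0.30. It also ranged from 13 without unstimulated replicate 2 to 37 without DC 8 h replicate 3, and it was 14 without DC 8 h replicate 2, 19 without DC 8 h replicate 1, 21 without unstimulated replicate 1 and 28 without unstimulated replicate 3. Rps18 was at 3729, 4121 and 4010.4 CPM before and 2568, 2260.4 and 2626 CPM after (log2 fold change -0.67 ± 0.13 SE, adjusted p = 0.00566). Rplp1, a stalk protein of the large subunit, was at 9166, 9859 and 8879 CPM and then 5783, 4817 and 6996 CPM (log2 fold change -0.67 ± 0.15 SE, adjusted p = 0.0125), a call lost without DC 8 h replicate 2 or unstimulated replicate 2. Mitosis genes had a median of -0.67 and 4 of 32 fell: Kif23 (32.6 to 7.99 CPM, log2 -2.03 ± 0.35), a kinesin of cytokinesis, Stmn1 (108 to 51.2 CPM, log2 -1.07 ± 0.31), Tubb5 (2704 to 1607 CPM, log2 -0.75 ± 0.13) and H2afz. Stmn1 and H2afz lost their calls whichever library was left out, with adjusted p up to 0.173 and 0.144, while Kif23 and Tubb5 kept theirs. Accordingly 2 of the 32 were lower in 5 of these 6 fits and 3 in the other, without DC 8 h replicate 3. The number was also 2 with library size alone, 8 with no low-count filter and 7 when only the 2 groups were fitted.

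The possible presence of dendritic cell RNA was measured with markers of mature, pan-, cDC1, cDC2 and plasmacytoid dendritic cells and of MHC class II. Of 78 defining markers present in the data, 55 were tested, and 4 (Clec10a, Gcsam, Ifi205 and Klk1) had no count at DC 8 h. Of the 55 tested, 6 rose and 3 fell, while 2.75% of all tested genes rose and 4.07% fell. Summed over all 78, the level was 1330, 1211 and 2169 CPM in unstimulated cells and 1840, 1348 and 1706 CPM at DC 8 h, so the groups overlapped. They also overlapped over all 97 markers, which add those set apart as also expressed by T cells, with 2357, 2224 and 3244 CPM and then 3189, 3079 and 3127 CPM. The defining set is not free of T cell genes: Serpinb6b, for example, is also in the list of cytotoxic effectors. For the 78 at IF 8 h, without added dendritic cells, the summed level was 602, 951 and 608 CPM, below every unstimulated and DC 8 h library. The sums of single lists did not behave alike.

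Markers of mature dendritic cells separated DC 8 h from unstimulated cells and from IF 8 h. The 21 defining genes summed to 133, 127 and 156 CPM in unstimulated cells, 152, 145 and 137 CPM at IF 8 h, and 454, 393 and 438 CPM at DC 8 h. No DC 8 h library overlapped with these groups. At 22 h the sum was 366, 374 and 416 CPM with dendritic cells, and it was 265, 351 and 394 CPM with filaments. Without added dendritic cells 1 library, IF 22 h replicate 3, thus just reached the lowest DC 8 h sum, and the other IF 22 h libraries lay below every DC 8 h library. Of 16 tested members 4 rose and none fell, and all 21 had a count at DC 8 h. Fscn1, which encodes fascin, was at 0, 0.181 and 6.74 CPM in unstimulated cells, 0.535, 0.663 and 0.268 CPM at IF 8 h and 168, 132 and 126 CPM at DC 8 h (log2 fold change 6.16 ± 0.85 SE, adjusted p = 3.00e-04). At IF 22 h it was at 5.83, 21.5 and 43.8 CPM, below DC 8 h and above unstimulated replicates 1 and 2. Without unstimulated replicate 3, which held 29 of the 30 unstimulated counts, the fitted log2 fold change of Fscn1 was 10.53. Ccl22, the chemokine that attracts CCR4+ T cells, had 1 count over the unstimulated libraries and 184, 116 and 70 counts at DC 8 h, a ratio of 247 (95% counting interval 44.0 to 9769). Cacnb3, a calcium channel subunit, was at 0.147, 0.542 and 0.465 CPM before and 10.98, 8.31 and 6.60 CPM after (log2 fold change 4.50 ± 0.77 SE, adjusted p = 0.00189). Tmem176b was at 23.03, 23.3 and 22.3 CPM and then 83.1, 55.8 and 92.1 CPM (log2 fold change 1.75 ± 0.33 SE, adjusted p = 0.00366). Among members that made up the sum at IF 22 h, Serpinb6b was at 139, 192 and 188 CPM there, 71.8, 106 and 97.7 CPM at DC 8 h and 71.3, 66.1 and 75.6 CPM in unstimulated cells, and Tmem176b was at 48.2, 51.3 and 56.00 CPM at IF 22 h. The cytokine subunit Il12b was at 0.147, 0 and 0.233 CPM, 0, 0 and 0 CPM at IF 8 h and 3.07, 4.47 and 1.32 CPM at DC 8 h, and did not pass the threshold (log2 fold change 4.44 ± 1.57 SE, adjusted p = 0.111). The promoter of Fscn1 is shown because Fscn1 is one of the defining mature markers that rose. In GRCm38.p6 on the plus strand at chr5:142960105-142960354 it reads, with a cyclic AMP response element (TGACGTCA) in capitals 45 bases before the RefSeq start:
Fscn1: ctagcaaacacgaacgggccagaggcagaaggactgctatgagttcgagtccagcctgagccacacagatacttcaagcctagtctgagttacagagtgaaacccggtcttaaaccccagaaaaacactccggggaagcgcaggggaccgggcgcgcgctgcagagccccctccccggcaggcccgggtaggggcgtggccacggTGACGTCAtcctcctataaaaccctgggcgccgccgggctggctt
These letters were in 2.41% of the promoters of genes called higher and 3.31% of those of tested genes.

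Other dendritic cell genes did not move as 1 group. Zbtb46, a transcription factor of conventional dendritic cells, had no count in any unstimulated or IF 8 h library and 23, 15 and 8 counts at DC 8 h, at least 10.2-fold higher than unstimulated against a floor of 3 counts over the group, but was too low for the test. Ctsh, a lysosomal cathepsin, rose from 0.440, 1.08 and 5.12 CPM to 11.97, 9.18 and 12.6 CPM (log2 fold change 2.42 ± 0.67 SE, adjusted p = 0.0377), a call lost in 5 of 6 fits that left out 1 library, and Spib, a factor of plasmacytoid dendritic cells and B cells, from 1 count in all to 39, 32 and 59 counts. Of 9 tested MHC class II genes none passed the threshold against unstimulated cells in edgeR's test, with 1 lower at an unadjusted p under 0.05, and the summed level was 660, 573 and 1322 CPM before and 1015, 653 and 871 CPM after. Relative to IF 8 h, at 246, 535 and 268 CPM, H2-Eb1 (log2 difference from IF 8 h 2.56 ± 0.51, adjusted p = 0.0287) and Cd74 (log2 difference from IF 8 h 1.89 ± 0.41, adjusted p = 0.0427) were higher at DC 8 h. H2-Eb1 read 170.0, 90.8 and 331 CPM in unstimulated cells, 19.4, 90.1 and 31.3 CPM at IF 8 h and 396, 173 and 247 CPM at DC 8 h, so the unstimulated libraries, to which no dendritic cells had been added, already held class II message at a similar level. Pan-dendritic markers summed to 331, 309 and 484 CPM in unstimulated cells and 266, 214 and 282 CPM at DC 8 h. The cDC1 markers summed to 110, 112 and 124 CPM and then 53.6, 41.0 and 52.6 CPM, lower in every DC 8 h library. That cDC1 list includes Itgae, which encodes CD103, the protein used in the sort, so its sum is not a measure of cDC1 message alone. How much of the cDC1 sum was Itgae was not tested. Over all 18 pan-dendritic markers, including the 4 set apart as also expressed by T cells, the sums were 529, 504 and 684 CPM before and 534, 662 and 568 CPM after, and the groups overlapped. Naaa, Pacsin1 and Lair1 were the 3 of 55 tested defining markers that fell, while 4.07% of all tested genes fell. Lair1 lost its call in 5 of 6 fits that left out 1 library. Its fitted log2 fold change was -2.18, and -3.09 without DC 8 h replicate 1.

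**Figure D4:**
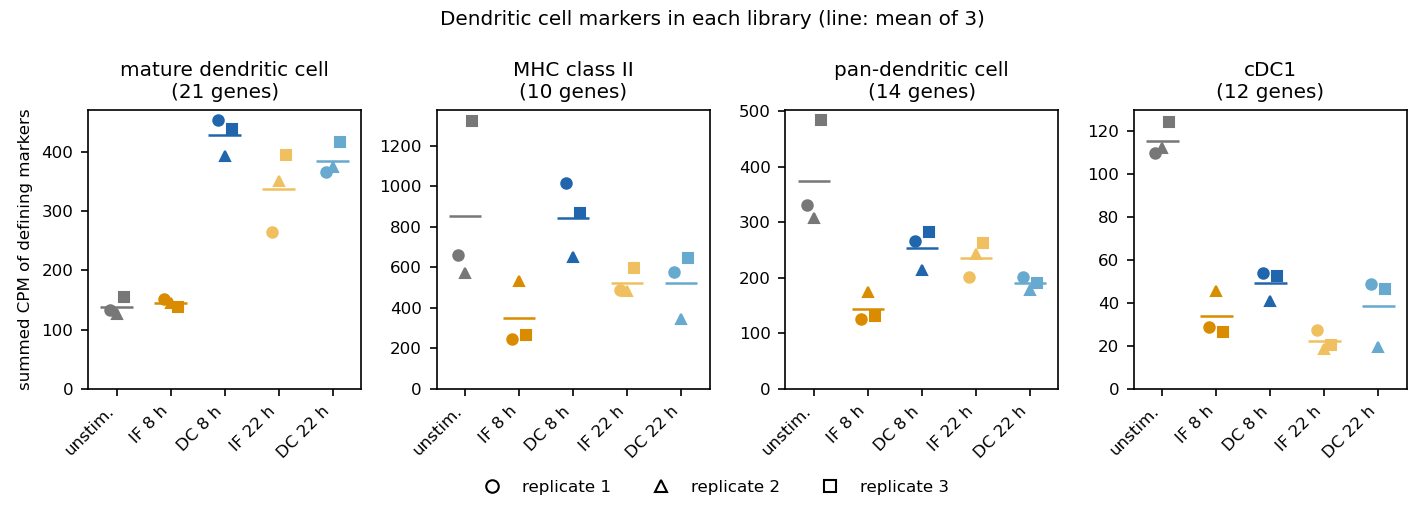
Summed CPM of the defining markers of mature dendritic cells, MHC class II, pan-dendritic cells and cDC1 in each library (symbols by replicate, horizontal line the mean of 3) of unstimulated, IF 8 h, DC 8 h, IF 22 h and DC 22 h cells; each axis starts at 0 and has its own scale. Mature markers are higher at DC 8 h than in unstimulated and IF 8 h cells and are also raised at 22 h with either stimulus, while the MHC class II sums at DC 8 h fall within the unstimulated range. The cDC1 markers, which include Itgae (CD103), are highest in unstimulated cells.

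Markers of other cell types were low at DC 8 h. Defining B cell markers summed to 6.08 to 12.6 CPM against 24.6 to 29.2 CPM in unstimulated cells, neutrophil markers to 0.372 to 4.25 CPM against 5.78 to 27.2 CPM, erythroid markers to 10.8 to 30.6 CPM against 30.9 to 82.1 CPM, and macrophage and monocyte markers to 4.10 to 6.33 CPM against 3.96 to 10.9 CPM. Markers at 0 at DC 8 h included Ebf1 among B cell, Camp, Ngp and Retnlg among neutrophil and C1qa, C1qb and C1qc among macrophage markers. The mature dendritic cell sum was lowest in replicate 2 of DC 8 h (393 CPM), the library that was most often the highest among genes called higher. Summed over all 32 mature dendritic cell markers, including those set apart as also expressed by T cells, replicate 2 was instead the highest, with 1322, 1444 and 1343 CPM in the 3 libraries. Of the genes counted above with the T cell response, Ccl22, Cd83, Socs2, Relb, Traf1 and Birc3 are also in the mature dendritic cell list. With such shared genes included, 10 of 27 tested mature dendritic cell genes rose and none fell. The list is not complete, and other genes counted with the T cell response may be expressed by dendritic cells as well. How much of any of these rises was dendritic cell message was not tested.

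Against the other 8 h stimulus, which lacks dendritic cells, 72 genes (0.665% of those tested) differed, 47 higher (0.434%) and 25 lower (0.231%) at DC 8 h. The IF 8 h libraries were shallower, with 2892874 to 5572030 counts. Both comparisons share the DC 8 h libraries, so their values are set side by side. Of the 298 genes higher at DC 8 h than in unstimulated cells 25 were also higher than at IF 8 h and 2 were lower, and of the 441 lower genes 12 were also below IF 8 h and 4 above it.

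Of the 43 genes past both tests, those furthest above IF 8 h included the dendritic cell genes Fscn1 (log2 difference from IF 8 h 8.15 ± 1.04, adjusted p = 0.00101), Ctsh (log2 difference from IF 8 h 4.70 ± 0.85, adjusted p = 0.0135) and Ccl22 (log2 difference from IF 8 h 3.56 ± 0.68, adjusted p = 0.0211) and the membrane-bound chemokine Cxcl16 (log2 difference from IF 8 h 5.75 ± 1.24, adjusted p = 0.0414), which was at 0.178, 0.331 and 0 CPM at IF 8 h and 10.5, 10.3 and 7.92 CPM at DC 8 h. The call for Cxcl16 against unstimulated cells was lost in 4 of 6 fits that left out 1 library. That against IF 8 h was lost with the replicate number as a block (adjusted p = 0.0633 in edgeR's test). Of the 22 STAT5 targets 6 differed from IF 8 h, all of them higher at DC 8 h: Cish, Socs2, Socs3, Bcl2l1, Cdkn1a and Tnfrsf18. Cish read 10.7, 8.94 and 4.02 CPM at IF 8 h (log2 difference from IF 8 h 3.004 ± 0.52, adjusted p = 0.0108). Socs2 read 0.178, 0 and 1.34 CPM (log2 difference from IF 8 h 5.44 ± 0.91, adjusted p = 0.00703). Outside that list, Bcl3 was at 36.5, 38.1 and 51.7 CPM at IF 8 h (log2 difference from IF 8 h 1.91 ± 0.25, adjusted p = 0.00101) and Bhlhe40 at 3.57, 5.63 and 3.21 CPM (log2 difference from IF 8 h 2.85 ± 0.46, adjusted p = 0.00594). At DC 8 h every library lay above every IF 8 h library for these 4 genes, which was so for 7.69% of tested genes. Igfbp4 (log2 difference from IF 8 h 3.79 ± 0.52, adjusted p = 0.00135), Dtx1 (log2 difference from IF 8 h 2.82 ± 0.35, adjusted p = 0.00101) and Junb (log2 difference from IF 8 h 1.19 ± 0.17, adjusted p = 0.00143) had fallen in both settings, and less far with dendritic cells: Igfbp4 was at 6.24, 3.31 and 19.8 CPM at IF 8 h.

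Fewer genes were lower with dendritic cells than with filaments. Myb, a factor of proliferating and stem-like lymphocytes, was at 7.63, 8.31 and 14.7 CPM in unstimulated cells, 96.4, 69.2 and 95.3 CPM at IF 8 h and 21.9, 27.4 and 14.96 CPM at DC 8 h (log2 difference from IF 8 h -2.02 ± 0.28, adjusted p = 0.00143). Its rise against unstimulated cells was lost in 4 of 6 fits that left out 1 library. Folr4, the sperm-egg fusion receptor gene Izumo1r that also marks T cells, was at 35.1, 57.4 and 55.1 CPM, 41.7, 45.1 and 55.1 CPM and 7.82, 12.9 and 6.31 CPM in the same order (log2 difference from IF 8 h -2.39 ± 0.37, adjusted p = 0.00467). Itih5, an extracellular matrix protein, was at 3.52, 7.58 and 3.49 CPM, 12.3, 16.9 and 7.495 CPM and 0.891, 1.24 and 0.733 CPM (log2 difference from IF 8 h -3.65 ± 0.50, adjusted p = 0.00135). The fall of Itih5 against unstimulated cells was lost without unstimulated replicate 2. Folr4 thus stayed within its unstimulated range with filaments and lay below it with dendritic cells. Of the 28 activation receptors 5 differed between the stimuli. Tnfrsf9 read 226, 134 and 160.3 CPM at IF 8 h (log2 difference from IF 8 h -0.28 ± 0.51, adjusted p = 0.972) and Il2ra 34.8, 11.9 and 39.1 CPM (log2 difference from IF 8 h 0.16 ± 0.73, adjusted p = 0.990), neither past the threshold.

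**Figure D5:**
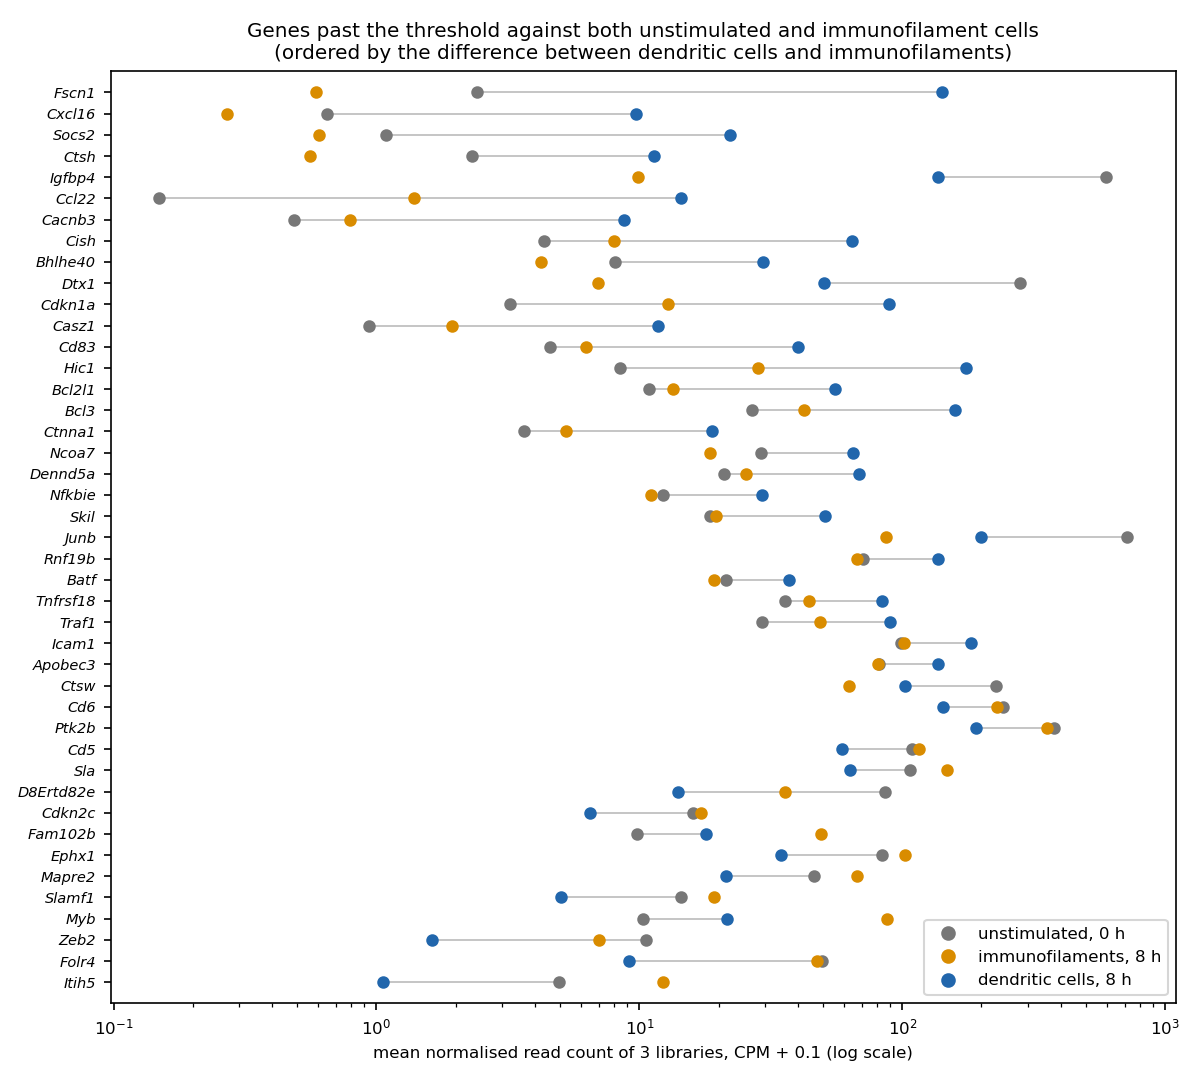
Mean normalised read count (CPM + 0.1, log axis) over 3 libraries in unstimulated (grey), IF 8 h (orange) and DC 8 h (blue) cells for the 43 genes past the threshold against both other groups, ordered by the difference between DC 8 h and IF 8 h. A grey line joins unstimulated and DC 8 h; Fscn1, Cxcl16 and Socs2 lead at the top with filament values below the unstimulated ones, and Itih5, Folr4, Zeb2 and Myb stand at the bottom.

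Several named genes share exonic bases with another gene in GENCODE vM21, and the use of strand in counting is not given in the sources used here, so their counts can include reads of the partner. On the opposite strand these are Dusp1 with Ergic1, Junb with Prdx2, Ppp1r15a with Tulp2, Cxcl10 with Art3, Ctsw with Fibp, Nfkb2 with Psd, Tmem176b with Tmem176a and Cxcl16 with Zmynd15. On the same strand they are L1cam with Arhgap4 and Irgm2 with Igtp. Antisense, small RNA, pseudogene or predicted genes overlap Cables1, Cdkn1a, AA467197, Slc16a5, Tnfrsf18, Xcl1, Zeb2, Rasgrp2, Bach2, Bcl2, Cish, Bcl3, Parp14, Slfn5, Gbp2, Hspa1a, Dnajb9, Ncl, Stmn1, Idi1, Elovl6, Cd3e, Myb, Cd74 and Ifng.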

How the data were processed

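RNA of sorted T cells was made into libraries by an adapted CEL-seq protocol and sequenced on a NextSeq 500, per the labels' protocols. The authors deposited whole-number read counts per gene for each library. The submitters' processing notes name BWA and the mm10 build. The annotation, use of molecular identifiers and strand are not given in the sources used here. Groups were taken from the sample labels, 3 libraries each.

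From the deposited counts, genes were kept with filterByExpr (minimum count 10, minimum total 15), which left out genes holding at most 0.124% of a library's counts. edgeR 4.0.16 (R 4.3.3, limma 3.58.1) fitted all 15 libraries with 5 group means, TMM scaling and a prior count of 0.125, so that all groups share 1 estimate of spread. Its quasi-likelihood test was adjusted by Benjamini-Hochberg over 10831 genes, with a threshold of 0.05. The standard error is the log2 fold change divided by the square root of F. The fit was also run on simulated counts, the outcome of which is not reported here. Intervals for ratios of counts are exact at 95% and, like the floor of 3 counts, cover counting error only. Tables and figures used Python 3.11.15, pandas 2.3.3 and matplotlib 3.10.9.

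Named genes were the 10 highest and 10 lowest fold changes among called genes without overlap (mean count 50 or more in the group with the higher level, and a library above 3 counts in the other), up to 4 called genes per list, dendritic cell markers with a mean of at least 10 counts, a panel of activation and naive-cell genes, and the 8 genes furthest from IF 8 h in each direction. Other genes are named as members of a list's count, after their values were seen. Some genes that the rule or lists hold are not reported here. Members and lists were chosen with earlier results of these data known. Alternatives were other scalings, filters, tools and sample sets, each library left out, and a replicate block. Promoters and their motif letters come from RefSeq (GRCm38.p6), matched by symbol.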

Additional observations from a re-analysis of the deposited data

Results flagged for a closer look

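For 43 of the 739 genes that differed between DC 8 h and unstimulated cells, the level at DC 8 h also differed from that at IF 8 h (edgeR's quasi-likelihood test, Benjamini-Hochberg adjustment). This count was singled out because the same contrast with unstimulated cells differs between the stimuli. The libraries at IF 8 h were shallower than those at DC 8 h. Whether depth or the added dendritic cells have a part in this count was not tested.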

How the results depend on the processing

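The 739 genes became 1129 with no low-count filter, 1175 with DESeq2 1.42.0 and 308 at an adjusted p threshold of 0.01, and with 1 library left out they ranged from 403 to 665. Genes called higher numbered 859 with library size alone, 537 without the filter, 487 with DESeq2 and 128 at 0.01, and 179 to 285 with 1 library left out. Genes called lower numbered 220 with library size alone, 688 with DESeq2 and 180 at 0.01, and 210 to 380 with 1 library left out. The 72 genes against IF 8 h became 215 without the filter, 195 with DESeq2, 47 when only the 2 groups were fitted and 25 at 0.01, and 27 to 52 with 1 library left out. The mean marker sum at DC 8 h was 1631 CPM for defining markers of all dendritic cell lists and 3132 CPM for all markers. Of 112 named genes past the threshold 76 kept their call in all 6 fits that left out 1 library, 36 lost it in at least 1, and 30 lost it without DC 8 h replicate 2. The log2 fold change without DC 8 h replicate 2 was 1.96 for Xcl1, 1.21 for Bhlhe40, 0.60 for Ncl, 0.76 for Wdr75 and 0.97 for Gadd45b. It was -5.26 for Igj without DC 8 h replicate 3 and 3.90 for Ctsh without unstimulated replicate 3. The cause of these shifts was not tested.

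The sign of the log2 fold change reversed for some panel genes, none of them past the threshold. With library size alone Cd69 was at 0.059, Ifng at 0.030 and Il7r at 0.020. That scaling moved the median of all genes to 0.30, and these values stayed below it, so relative to the bulk of genes their direction was unchanged. With 1 library left out, Cd69 ranged from -0.72 to 0.028, Ifng from -1.75 to 0.22, Gzmb from -0.28 to 0.85, Nr4a1 from -0.77 to 0.42 and Il7r from -0.47 to 0.041. One end of each range came without DC 8 h replicate 2.

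With the replicate number as a block 714 genes passed (281 higher and 433 lower, 663 of them among the 739) and 54 against IF 8 h, and under this replicate block Nr4a1 was at -0.10. Samples with the same number correlated at 0.059, 0.043 and 0.030 in their deviations from the means of unstimulated and DC 8 h groups. Against the unstimulated libraries each DC 8 h library correlated best with its own number, but none reached 0.1. Against IF 8 h the same-number correlations were -0.060, -0.167 and -0.065, and pairs of different numbers reached 0.127, so no pairing was seen there. The tags Don1 to Don3 recur in every group, and the labels do not say whether a tag marks a shared source, so both fits are given. Under the block the adjusted p of edgeR's test was 0.0626 for Xcl1, 0.0543 for Eomes, 0.0544 for Atf5, 0.0631 for Stmn1, 0.0518 for Myb and 0.0733 for Cd40lg, calls that were past the threshold without it. Against IF 8 h it was 0.0711 for Zeb2, 0.0633 for Cxcl16 and 0.0599 for Cacnb3.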
